A study of Mus musculus with 12 samples.

Results

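The Hox genes of the mouse were followed through every library of the series, taking as members all genes whose symbol is Hox, a cluster letter from a to d, and a number. A total of 39 of the 49315 genes in the count tables met this rule: 11 in the Hoxa cluster, 10 in Hoxb, 9 in Hoxc and 9 in Hoxd. On GRCm38 the Hoxb, Hoxc and Hoxd members span chr11:96194316-96368256 (Hoxb), chr15:102921103-103036852 (Hoxc) and chr2:74668310-74765142 (Hoxd). Hox genes encode homeodomain transcription factors that give cells their position along the head-to-tail axis. Genes at the low-number end of a cluster act in the hindbrain and neck, and genes at the high-number end act in the trunk, limbs and tail. The retina and the other tissues of the eye form in front of the Hox domain, and their cells are known for lacking Hox transcripts.

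RNA was sequenced from primary Müller glia, the radial glia that span the retina, grown from wild-type (WT) mouse neural retina. The glia shared medium, through transwell inserts, with primary retinal pigment epithelium (RPE) cells that had received either 100 nM PNU-282987, which activates α7 nicotinic acetylcholine receptors (PNU here), or the solvent DMSO. The 4 groups of 3 libraries were PNU for 6 h, DMSO for 6 h, PNU for 2 h and DMSO for 2 h, all from WT cells. The labels give the DMSO concentration as 0.1% in one place and 1% in another, give no age or sex, and do not say whether the replicates came from separate animals or cultures. The p-values below therefore measure only the spread between these samples, which may be technical. The glia had been passaged several times before use, so the libraries describe an expanded culture and not retina taken from the animal.

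The libraries held 44332013 to 66518799 counts each. Levels below are CPM, a gene's counts scaled to the total of its library. A gene with at most 3 counts, which correspond to 0.0451 to 0.0677 CPM, was taken as being at or under the floor, a limit of counting alone. Of the 22 Müller glia markers, 8 had a median over 1 CPM. Vim and Glul were abundant, at 6063 to 7451 and 61.5 to 94.4 CPM. The glial glutamate transporter gene Slc1a3 did not exceed 3.72 CPM. The defining glial genes Rlbp1 (at most 0.302 CPM) and Aqp4 (at most 0.218 CPM) were near the floor, as was the RPE gene Rpe65 (at most 0.0442 CPM). Of 18 fibroblast and mesenchyme markers, 15 had a median over 1 CPM and 12 over 100 CPM, and Col1a1 lay at 3509 to 4895 CPM. The summed level of those 18 genes was 28978 to 32757 in PNU 6 h, 30253 to 30372 in DMSO 6 h, 24899 to 27969 in PNU 2 h and 25423 to 34201 in DMSO 2 h libraries, in CPM. The Müller glia markers thus differed: Rlbp1 and Aqp4 did not match the label of the samples, whereas Vim and Glul were abundant. Several libraries of a group were close to identical: replicates 2 and 3 of PNU 6 h, replicates 2 and 3 of PNU 2 h and all 3 of DMSO 6 h differed with a coefficient of variation per gene of 0.0312 to 0.0378, against 0.153 to 0.364 in the other pairs. These close pairs still differed by more than counting noise, with a chi-square of 2.23 to 3.96 per gene, which repeats of 1 culture can do as well. They were kept as separate libraries in the fits below, and may be technical repeats, in which case the p-values are too small. Adding up their counts left 8 libraries, with 1 for DMSO 6 h, so a lack of calls in that fit says little. With their counts added up, edgeR called no gene in any comparison. In addition, 4 libraries, named below, held Y-linked transcripts together with most of the Hoxb and Hoxc counts, and results are given with and without them.

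Hox transcripts were present in every library. Of the 39 members, 7 exceeded 1 CPM in all 12 libraries, among them Hoxa3, Hoxa4, Hoxa5, Hoxc4, Hoxd8 and Hoxd9. A total of 16 members exceeded 1 CPM in none, 6 were at or under the floor in all 12, and Hoxd12 had no count anywhere. The sum over all 39 members was 67.6, 92.5 and 91.0 CPM in PNU 6 h libraries, against 83.4, 82.2 and 81.5 CPM in DMSO 6 h libraries. At 2 h it was 67.9, 63.1 and 61.7 CPM in PNU 2 h libraries, against 82.8, 80.4 and 93.2 CPM in DMSO 2 h libraries. Most of the other members with counts differed between libraries of 1 group, as the plot of all members by library shows.

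**Figure D1:**
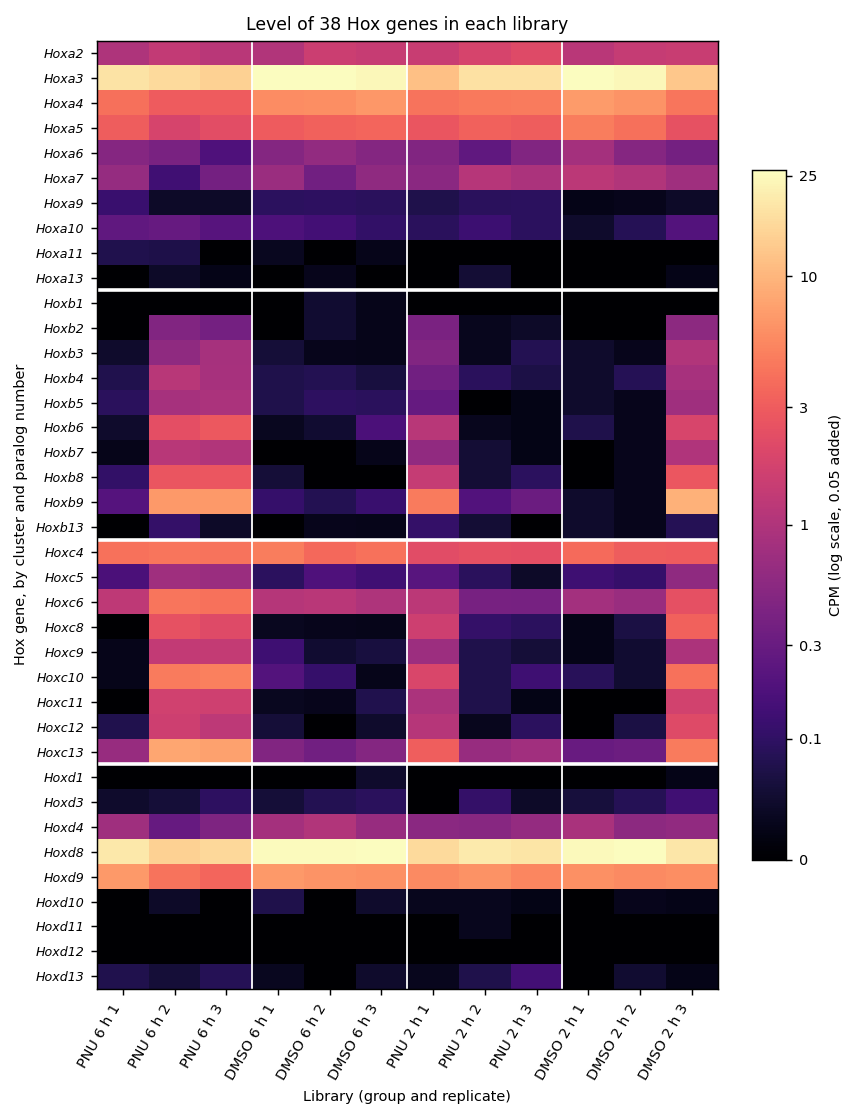
Level of 38 Hox genes (rows, ordered by cluster and paralog number) in each of the 12 libraries (columns), as CPM on a log scale with 0.05 added. Hoxa3 to Hoxa5, Hoxc4, Hoxd8 and Hoxd9 are bright in all libraries, while Hoxb2 to Hoxb9 and Hoxc8 to Hoxc13 are bright in PNU 6 h replicates 2 and 3, PNU 2 h replicate 1 and DMSO 2 h replicate 3.

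The Hox clusters also carry microRNAs, short RNAs that pair with messenger RNAs through their seed, bases 2 to 8 of the mature sequence. The miR-10 genes lie by the fourth paralogs and the miR-196 genes by the ninth. They are printed here because the Hoxb copy of miR-196a was counted in the same libraries as the Hoxb genes, and because Hoxb8 is a known target of miR-196a in mouse. Sequences are from RefSeq on GRCm38.p6, 5′ to 3′, with the seed in capitals.
miR-10a-5p (Hoxb cluster): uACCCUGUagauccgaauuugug
miR-10b-5p (Hoxd cluster): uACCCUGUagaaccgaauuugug
miR-196a-5p (Hoxb and Hoxc clusters): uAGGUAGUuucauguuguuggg
miR-196b-5p (Hoxa cluster): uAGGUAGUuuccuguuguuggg
Both miR-10 sequences share the seed ACCCUGU, and both miR-196 sequences share the seed AGGUAGU. A search of the annotated 3′ UTRs of the 39 members for the 22-base window that pairs best with miR-196a-5p, counting Watson-Crick pairs only, gave 21 paired bases in Hoxb8 and at most 15 in any other member. The Hoxb8 window lies at chr11:96284888-96284909 (GRCm38, plus strand) and is printed with paired bases in capitals.
Hoxb8 site: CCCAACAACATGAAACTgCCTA
Reads on the Mir196a-1 hairpin of the Hoxb cluster came to 0.133 to 0.376 CPM in PNU 6 h replicates 2 and 3, PNU 2 h replicate 1 and DMSO 2 h replicate 3, and to at most 0.0176 CPM in the 8 others. These libraries were made from poly(A) RNA, so such reads do not measure the mature microRNA.

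The members found in all libraries came from the front of Hoxa, from Hoxc4 and from the middle of Hoxd. Hoxa2, the selector gene of the second pharyngeal arch, had 0.984, 1.32 and 1.18 CPM in PNU 6 h libraries, against 1.04, 1.53 and 1.43 CPM in DMSO 6 h libraries. At 2 h Hoxa2 had 1.48, 1.85 and 2.15 CPM in PNU 2 h libraries, against 1.17, 1.39 and 1.45 CPM in DMSO 2 h libraries, and here the PNU libraries all lay above the DMSO libraries.

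Hoxa3 is needed for the thymus and parathyroid glands. It had 18.4, 16.2 and 14.3 CPM in PNU 6 h libraries, against 26.3, 26.0 and 24.3 CPM in DMSO 6 h libraries. For 2 h the values of Hoxa3 were 11.7, 17.9 and 17.9 CPM in PNU 2 h libraries, against 25.7, 24.1 and 12.9 CPM in DMSO 2 h libraries. At 6 h the groups did not overlap, and at 2 h the lowest DMSO library, replicate 3, lay among the PNU libraries. Hoxa4, a gene of the neck vertebrae, had 4.04, 2.98 and 2.95 CPM in PNU 6 h libraries, against 5.82, 5.92 and 6.80 CPM in DMSO 6 h libraries. For 2 h the values of Hoxa4 were 4.20, 4.48 and 4.66 CPM in PNU 2 h libraries, against 7.06, 6.33 and 4.25 CPM in DMSO 2 h libraries. Its PNU libraries were all below its DMSO libraries at 6 h only. Hoxa5, which acts in the lung and the lower neck, had 3.02, 1.87 and 2.30 CPM in PNU 6 h libraries, against 3.00, 3.31 and 3.43 CPM in DMSO 6 h libraries. For 2 h the values of Hoxa5 were 2.70, 3.24 and 3.04 CPM in PNU 2 h libraries, against 4.73, 3.98 and 2.52 CPM in DMSO 2 h libraries, and its groups overlapped at both times.

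Behind Hoxa5, no Hoxa gene exceeded 0.966 RPKM, a level scaled to exonic length as well as to depth, in any library. Hoxa7, a thoracic gene, lay at 0.140 to 0.667 CPM at PNU 6 h, 0.359 to 0.722 at DMSO 6 h, 0.552 to 1.11 at PNU 2 h and 0.782 to 1.20 at DMSO 2 h. Hoxa6 ranged over 0.188 to 0.845 CPM, and Hoxa9, Hoxa10, Hoxa11 and Hoxa13 did not exceed 0.295 CPM in any library. Hoxc4, a gene of the neck and upper thorax, had 4.08, 4.31 and 4.23 CPM in PNU 6 h libraries, against 4.71, 3.65 and 4.14 CPM in DMSO 6 h libraries. At 2 h Hoxc4 had 2.25, 2.44 and 2.39 CPM in PNU 2 h libraries, against 3.67, 3.01 and 3.00 CPM in DMSO 2 h libraries. Both DMSO groups and the PNU 6 h group lay above all 3 PNU 2 h libraries.

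In the Hoxd cluster 2 neighbouring genes stood out. Hoxd8, a gene of trunk identity, had 19.7, 14.5 and 15.8 CPM in PNU 6 h libraries, against 25.2, 25.3 and 25.7 CPM in DMSO 6 h libraries. At 2 h Hoxd8 had 16.3, 20.2 and 19.0 CPM in PNU 2 h libraries, against 24.5, 25.9 and 19.3 CPM in DMSO 2 h libraries. All PNU libraries were below all DMSO libraries at 6 h, whereas at 2 h the highest PNU library exceeded the lowest DMSO library. Hoxd9, which acts in the limb and lower back, had 6.90, 4.24 and 3.43 CPM in PNU 6 h libraries, against 6.93, 6.33 and 6.15 CPM in DMSO 6 h libraries. At 2 h Hoxd9 had 5.59, 6.31 and 5.37 CPM in PNU 2 h libraries, against 6.08, 5.64 and 5.96 CPM in DMSO 2 h libraries, with overlapping groups at both times. Hoxd4 lay at 0.295 to 1.04 CPM, and the other 6 Hoxd members did not exceed 0.150 CPM.

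Per exonic length (RPKM), Hoxd8 was the highest Hox gene in each of the 12 libraries, at 5.29 to 9.43 RPKM. Hoxa4 ranged over 1.85 to 4.43 RPKM, Hoxa3 over 1.94 to 4.37 and Hoxd9 over 1.61 to 3.24. These 3 ranges overlapped, and the order of the genes differed between libraries. Within Hoxa the highest level per length was that of Hoxa3 or Hoxa4 in every library, while Hoxa2 lay at 0.554 to 1.21 RPKM. Counts at Hoxb3, Hoxd3 and Hoxd4 are uncertain, because 52.9%, 62.8% and 52.3% of their exonic bases are shared with another annotated gene and the sources used here do not say whether the counting used strand. Of the 39 members, 16 shared some exonic bases.

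**Figure D2:**
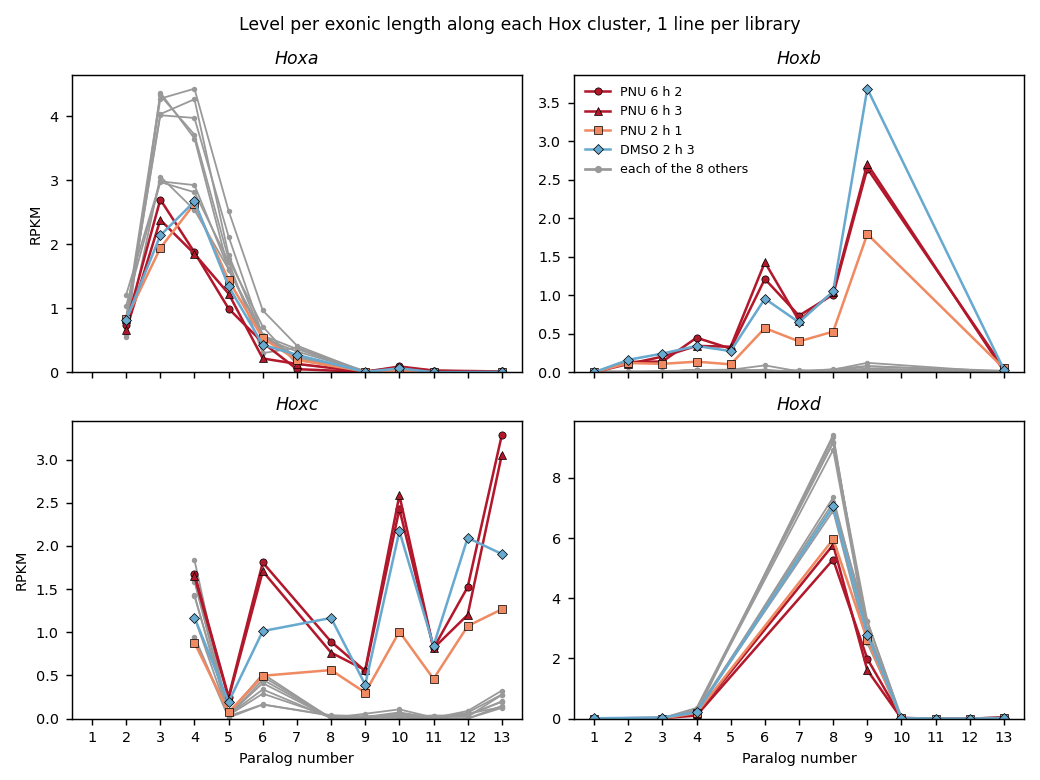
Level per exonic length (RPKM) against paralog number in each of the 4 clusters for 38 Hox genes, 1 line per library; the 4 named libraries are coloured and each of the 8 others is grey. Hoxd8 is the highest point in every library, and only the coloured lines rise at Hoxb9, Hoxc10 and Hoxc13.

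A second set of members was high in 4 libraries of 3 different groups: PNU 6 h replicates 2 and 3, PNU 2 h replicate 1 and DMSO 2 h replicate 3. The summed level of the 10 Hoxb genes was 0.562, 16.2 and 16.6 CPM in PNU 6 h libraries, against 0.361, 0.397 and 0.528 CPM in DMSO 6 h libraries. At 2 h the Hoxb sum was 9.39, 0.479 and 0.616 CPM in PNU 2 h libraries, against 0.236, 0.212 and 18.4 CPM in DMSO 2 h libraries. The summed level of the 9 Hoxc genes was 6.29, 29.2 and 27.9 CPM in PNU 6 h libraries, against 6.79, 5.56 and 5.95 CPM in DMSO 6 h libraries. At 2 h the Hoxc sum was 13.1, 3.92 and 3.98 CPM in PNU 2 h libraries, against 5.03, 4.34 and 23.0 CPM in DMSO 2 h libraries. In each sum the same 4 libraries lay above the 8 others, with no overlap. The Hoxa sum, by contrast, was 23.0 to 28.0 CPM in those 4 libraries and 31.5 to 46.0 CPM in the 8 others. As a share of all Hox counts, Hoxb took 13.8% to 19.8% in the 4 libraries and 0.264% to 0.999% in the 8 others, and Hoxc took 19.2% to 31.6% and 5.40% to 9.30%. In such bulk samples, more cells of a kind and more RNA per cell cannot be told apart.

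**Figure D3:**
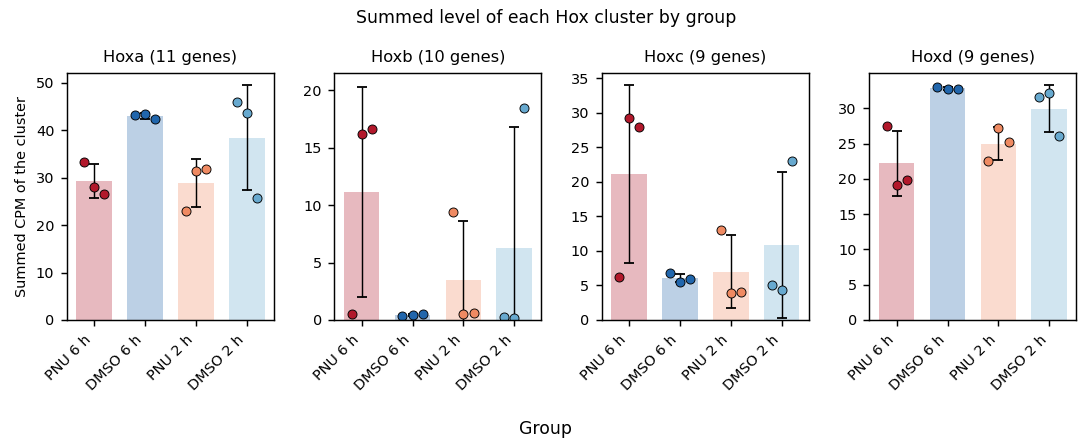
Summed CPM of each Hox cluster, with a point per library, bars for the group mean and whiskers for the SD over 3 libraries (whiskers are cut at 0). The Hoxb and Hoxc sums of PNU 6 h, PNU 2 h and DMSO 2 h are each split between high and low libraries, while the 3 DMSO 6 h libraries are all low.

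Counted gene by gene, 15 members were higher in each of those 4 libraries than in any of the 8 others: Hoxb2 to Hoxb9, Hoxc5 and Hoxc8 to Hoxc13. Among all 17164 tested genes the share was 1.6%. Without the 4 libraries 17 members could be tested, against 28 with them. Some of the 15 thus passed the filter on low counts only through the libraries where they are high. For those, a place among the 15 was partly fixed by the filter. These 15 include both genes named as trunk markers, Hoxc8 and Hoxb7. A total of 2 members, Hoxa3 and Hoxa5, were lower in each of the 4 libraries, against 1.15% of all tested genes. Libraries were set apart here by what was measured in them, a level of the Y-linked gene Ddx3y over 1 CPM, and not by the design. The values are therefore a description and were not tested.

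Hoxb9, which patterns the thoracic ribs, was the highest Hoxb gene per length in each of the 4 libraries, at 1.79 to 3.68 RPKM. Its level was 0.211, 6.81 and 6.96 CPM in PNU 6 h libraries, against 0.113, 0.0756 and 0.123 CPM in DMSO 6 h libraries. At 2 h the level of Hoxb9 was 4.62, 0.196 and 0.316 CPM in PNU 2 h libraries, against 0.0338, 0.0193 and 9.48 CPM in DMSO 2 h libraries. The DMSO 2 h replicate 3 library held the highest value of the series, and 6 of the 8 low libraries still held reads above the floor. Hoxb8, which labels a lineage of microglia in mouse, was at 0.105, 2.66 and 2.74 CPM in PNU 6 h libraries, against 0.0451, 0 and 0 CPM in DMSO 6 h libraries. At 2 h Hoxb8 was at 1.39, 0.0435 and 0.0902 CPM in PNU 2 h libraries, against 0, 0.0193 and 2.77 CPM in DMSO 2 h libraries. All 3 DMSO 6 h libraries were at or under the floor for this gene. Hoxb6, a gene of the lateral mesoderm, was at 0.0351, 2.38 and 2.81 CPM in PNU 6 h libraries, against 0.0226, 0.0378 and 0.176 CPM in DMSO 6 h libraries. At 2 h Hoxb6 was at 1.13, 0.0218 and 0.0150 CPM in PNU 2 h libraries, against 0.0676, 0.0193 and 1.88 CPM in DMSO 2 h libraries, again with high values in the same 4 libraries. Hoxb7 was at 0.619 to 1.13 CPM in the 4 libraries and at most 0.0435 CPM in the 8 others. Hoxb2 to Hoxb5 lay between 0.287 and 1.15 CPM in the 4 libraries. Hoxb1 and Hoxb13, at the ends of the cluster, did not exceed 0.0378 and 0.110 CPM.

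In the Hoxc cluster the gene with the highest level per length in those libraries was Hoxc13, or in DMSO 2 h replicate 3 Hoxc10. Hoxc13, known for its part in hair and nail formation, was at 0.685, 8.08 and 7.52 CPM in PNU 6 h libraries, against 0.474, 0.359 and 0.493 CPM in DMSO 6 h libraries. At 2 h Hoxc13 was at 3.12, 0.675 and 0.797 CPM in PNU 2 h libraries, against 0.304, 0.328 and 4.69 CPM in DMSO 2 h libraries. It stayed well above the floor in all 12 libraries. Hoxc10, a gene of lumbar identity, was at 0.0176, 4.63 and 4.94 CPM in PNU 6 h libraries, against 0.203, 0.113 and 0.0176 CPM in DMSO 6 h libraries. At 2 h Hoxc10 was at 1.92, 0.0653 and 0.135 CPM in PNU 2 h libraries, against 0.0845, 0.0386 and 4.14 CPM in DMSO 2 h libraries. Hoxc8, which acts in the lower thorax, was at 0, 2.52 and 2.16 CPM in PNU 6 h libraries, against 0.0226, 0.0189 and 0.0176 CPM in DMSO 6 h libraries. At 2 h Hoxc8 was at 1.59, 0.109 and 0.0902 CPM in PNU 2 h libraries, against 0.0169, 0.0579 and 3.30 CPM in DMSO 2 h libraries, so PNU 6 h replicate 1 and all DMSO 6 h libraries lay under the floor for this gene. Hoxc11, a gene of the lower trunk and hindlimb, was at 0, 1.65 and 1.65 CPM in PNU 6 h libraries, against 0.0226, 0.0189 and 0.0705 CPM in DMSO 6 h libraries. At 2 h Hoxc11 was at 0.928, 0.0653 and 0.0150 CPM in PNU 2 h libraries, against 0, 0 and 1.70 CPM in DMSO 2 h libraries, with the same split of libraries. Hoxc9 was at 0.729 to 1.36 CPM in the 4 libraries and at most 0.135 CPM elsewhere. Hoxc12 was at 1.10 to 2.16 CPM and at most 0.0902 CPM. Hoxc5 was at 0.221 to 0.777 CPM and at most 0.189 CPM.

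Hoxc6, a thoracic gene, took a middle place, present in all libraries and higher in some of the 4. It was at 1.25, 4.35 and 4.11 CPM in PNU 6 h libraries, against 1.08, 1.17 and 0.986 CPM in DMSO 6 h libraries. At 2 h Hoxc6 was at 1.19, 0.392 and 0.391 CPM in PNU 2 h libraries, against 0.811, 0.695 and 2.44 CPM in DMSO 2 h libraries. PNU 2 h replicate 1, with 1.19 CPM, lay below PNU 6 h replicate 1, so Hoxc6 is not among the 15. Of the 39 members, PNU 6 h replicates 1 to 3 held 8, 20 and 19 over 1 CPM, against 9, 10 and 8 in DMSO 6 h libraries. At 2 h the PNU libraries held 16, 9 and 8, against 9, 9 and 19 in DMSO libraries.

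The same 4 libraries held transcripts of the Y chromosome. In the counts of 4 libraries against 8, the 4 were picked as those with Ddx3y over 1 CPM. The split of Ddx3y itself therefore follows from that rule. Ddx3y, a Y-linked RNA helicase gene, was at 0.141, 7.43 and 6.74 CPM in PNU 6 h libraries, against 0.0451, 0.0378 and 0.141 CPM in DMSO 6 h libraries. At 2 h Ddx3y was at 2.23, 0.0870 and 0.0150 CPM in PNU 2 h libraries, against 0.0338, 0.0386 and 5.00 CPM in DMSO 2 h libraries. Kdm5d, Eif2s3y and Uty, all on the Y chromosome, likewise had 1.15 to 1.60, 2.14 to 4.93 and 0.641 to 1.57 CPM in the 4 libraries and at most 0.132 CPM in the 8 others. Xist, the RNA of the inactive X chromosome, was at 0.439, 2.46 and 2.13 CPM in PNU 6 h libraries, against 1.15, 1.23 and 0.969 CPM in DMSO 6 h libraries. At 2 h Xist was at 0.133, 0.0653 and 0.0902 CPM in PNU 2 h libraries, against 0.777, 0.888 and 0.0469 CPM in DMSO 2 h libraries. The part of the Y-linked genes and Xist in the Hox levels was not tested.

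Of the 14 listed eye-field factors 9 were tested, and 3 of them, Pax6, Six3 and Sox2, gave a different split. They were chosen with earlier results of these data known, and no share of all tested genes was counted for this split. It describes these 3 genes and not the list. Pax6, the leading eye-field gene, was at 0.281, 12.2 and 12.6 CPM in PNU 6 h libraries, against 0.113, 0.0945 and 0.141 CPM in DMSO 6 h libraries. At 2 h Pax6 was at 0.574, 14.9 and 14.9 CPM in PNU 2 h libraries, against 0.169, 0.251 and 0.203 CPM in DMSO 2 h libraries. Six3 and Sox2, which act beside it, were at 8.27 to 10.7 CPM in PNU 6 h replicates 2 and 3 and PNU 2 h replicates 2 and 3, and at most 0.287 CPM in the 8 others. PNU 6 h replicates 2 and 3 therefore held both the Hoxb and Hoxc genes and these 3 genes. PNU 2 h replicate 1 and DMSO 2 h replicate 3 held the Hoxb and Hoxc genes with at most 0.574 CPM of any of the 3. PNU 2 h replicates 2 and 3 held the 3 genes without the Hoxb and Hoxc genes. The eye genes Rax and Otx2 did not exceed 0.625 and 0.0451 CPM in any library, and Lhx2 did not exceed 0.871 CPM.

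**Figure D4:**
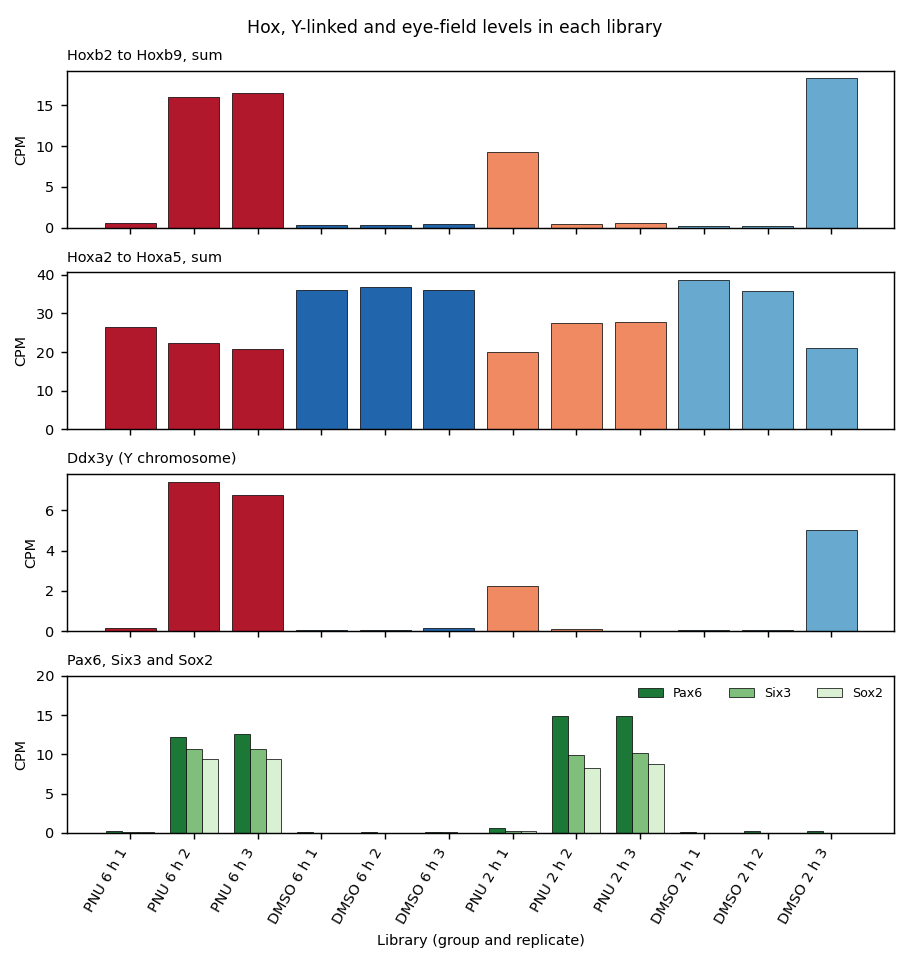
CPM in each library (bars, coloured by group in the upper 3 rows) of Hoxb2 to Hoxb9 summed, Hoxa2 to Hoxa5 summed, the Y-linked Ddx3y, and Pax6, Six3 and Sox2. Ddx3y exceeds 2 CPM in the same 4 libraries as the Hoxb sum, and Pax6, Six3 and Sox2 exceed 8 CPM in PNU 6 h replicates 2 and 3 and PNU 2 h replicates 2 and 3.

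Other markers were read in the same 4 libraries. Over all tested genes, 1.6% were higher in each of the 4 than in any other. Of the 18 fibroblast and mesenchyme genes, all tested, 1, Thy1, was higher in each of the 4, at 3.70 to 21.9 CPM, than in any of the 8 others, at 0.309 to 1.37 CPM. Of the 12 pericyte and smooth muscle genes, 9 were tested and 3 of them were higher in each of the 4: Acta2 at 2136 to 2405 against 1502 to 2117 CPM, Tagln at 385 to 444 against 215 to 359 CPM, and Cnn1 at 33.3 to 37.2 against 15.7 to 30.8 CPM. The summed level of those 12 genes was 3107 to 3494 in PNU 6 h, 2524 to 2571 in DMSO 6 h, 3282 to 3630.3 in PNU 2 h and 2414 to 3192 in DMSO 2 h libraries, in CPM. No gene of the lists for Müller glia, RPE, retinal neurons, endothelium, leukocytes, Schwann cells with astrocytes and melanocytes, skeletal muscle or epithelium behaved so. The part of these markers in the Hox levels was not tested.

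Other positional genes were read from lists. Of 28 listed trunk, heart and limb factors, 18 passed the filter on low counts, and 2 of the 18 were higher in each of the 4 libraries than in the 8 others, against 1.6% of all tested genes. The heart gene Nkx2-5 was at 0.508 to 1.22 against 0 to 0.0870 CPM and Gata4 at 0.375 to 0.641 against 0.0756 to 0.361 CPM. Hand2, which was not tested, was at 0.435 and 0.376 CPM in PNU 6 h replicates 2 and 3 and at or under the floor in the 10 other libraries, PNU 2 h replicate 1 and DMSO 2 h replicate 3 among them. Of the 6 tested of 11 listed forebrain and midbrain factors 1 was higher in each of the 4, En2 at 0.552 to 1.85 against 0.0579 to 0.305 CPM. The periocular mesenchyme gene Foxc1 was at 44.1 to 105 CPM in every library. Alx4, listed as a cranial factor, was at 54.9 to 159 CPM, and Tbx15, listed as a trunk factor, at 55.5 to 109 CPM. Genes of both lists were thus read in all 12 libraries. A place on a list does not mean that a gene marks the head or the trunk alone.

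Among the 17 noncoding RNAs of the clusters in the tables, Hotairm1, a transcript of the Hoxa cluster, had the highest median level per length, and it ranged over 2.70 to 5.69 CPM. Of the 17, 5 were tested, and 1 of these, Mir196a-1, was higher in each of the 4 libraries, at 0.133 to 0.376 CPM, than in any other, at most 0.0176 CPM. The RNAs that were not tested are left out of this count, because no share over all genes that includes untested ones was taken. Hoxb3os, Hoxb5os and Hotair were not tested and had at most 3 counts in at least 1 of the 4 libraries. Of the 13 measured genes flanking the clusters 10 were tested, and of the 26 listed regulators of Hox clusters 24. None of either list was higher in each of the 4 libraries than in the 8 others. Over all tested genes the share was 1.6%, so a count of 0 in such short lists is near that share. The flanking genes Calcoco1, Cbx5, Mtx2 and Snx11 lay at 62.3 to 119, 87.8 to 177, 28.4 to 32.8 and 24.8 to 34.2 CPM over all libraries. The Hox cofactors of the TALE homeodomain class were all over 1 CPM in the median, and their median levels per length included Pbx2 at 13.9 RPKM, Meis3 at 7.69 RPKM and Pbx3 at 2.71 RPKM. Meis1, which binds DNA together with PBX and HOX proteins, was at 5.04 to 13.4 CPM. Among the regulators the medians per length were led by the Trithorax partner Men1 at 20.8 RPKM, the growth factor gene Gdf11 at 19.0 RPKM, and the Polycomb genes Bmi1 and Pcgf2 at 13.2 and 12.8 RPKM.

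The upstream 250 bases of Hoxb8 and Hoxd8 are printed because these paralogs stood at opposite ends of the pattern, Hoxb8 high in 4 libraries and Hoxd8 the highest member per exonic length in all 12. Both are from RefSeq on GRCm38.p6 and end at the base before the annotated start. Capitals mark the letters TATAAA (the TATA box) and TGATNNAT (a composite of the kind bound by PBX with HOX proteins), searched on both strands.
Hoxb8, chr11:96281655-96281904, plus strand: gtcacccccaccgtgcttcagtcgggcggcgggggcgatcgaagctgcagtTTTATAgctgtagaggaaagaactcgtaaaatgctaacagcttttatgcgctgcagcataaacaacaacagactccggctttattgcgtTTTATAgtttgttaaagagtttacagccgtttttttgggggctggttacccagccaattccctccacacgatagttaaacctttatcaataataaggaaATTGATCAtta
Hoxd8, chr2:74704365-74704614, plus strand: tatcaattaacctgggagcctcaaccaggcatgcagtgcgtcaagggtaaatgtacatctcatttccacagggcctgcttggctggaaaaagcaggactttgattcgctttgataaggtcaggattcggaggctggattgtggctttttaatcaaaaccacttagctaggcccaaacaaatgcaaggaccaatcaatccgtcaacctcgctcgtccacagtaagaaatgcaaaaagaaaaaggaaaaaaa
The Hoxb8 window held 2 matches to TATAAA and 1 to TGATNNAT, all on the reverse strand and without overlap, and the Hoxd8 window held neither. Of all 32851 RefSeq promoter windows of this length, 12.4% held TATAAA and 7.68% held TGATNNAT. RefSeq promoters were found for 22 of the 39 members, as 24 windows, and 4 of these held TATAAA and 4 held TGATNNAT. The median number of CG pairs was 12.5 in the Hox windows and 6 over all windows.

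PNU was compared with DMSO at each time with edgeR's quasi-likelihood test over 17164 genes, with Benjamini-Hochberg adjustment and a threshold of 0.05. A total of 28 of the 39 members passed the filter on low counts, some of them through the 4 libraries alone, and 11 were not tested: Hoxa9, Hoxa11, Hoxa13, Hoxb1, Hoxb13 and all Hoxd members but Hoxd4, Hoxd8 and Hoxd9. At 6 h, 0 of the 28 were called, against 1.05% of all tested genes (181 genes), and 16 had an unadjusted p under 0.05, against 15.6% of all tested genes (2683 genes). Most of these 16 are among the 15 members high in the 4 libraries, so the count is no test of PNU. With limma-voom, another test, it was 6, against 2622 of 17164 genes. Without DMSO 6 h replicate 1 it was 4, against 1828 of 17660 genes. Without PNU 6 h replicate 1 it was 23, against 3990 of 17604 genes. These were the extremes with each library left out. At 2 h, 0 were called, against 0.291% of all tested genes (50 genes), and 3 had an unadjusted p under 0.05, against 30.0% of all tested genes (5149 genes). DESeq2 called 3 of the 28 members at 6 h, Hoxa4, Hoxd8 and Hoxc13, against 5.38% of all tested genes (923 genes), and 1 member at 2 h, against 14.6% (2511 genes).

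At 6 h the lowest adjusted p among the members was that of Hoxa4, whose fitted log2 fold change was -0.88 (SE 0.20, adjusted p = 0.0670). For Hoxd8 it was -0.59 (SE 0.14, adjusted p = 0.0704) and for Hoxa3 -0.63 (SE 0.24, adjusted p = 0.221). The PNU libraries of these 3 genes all lay below the DMSO libraries, as did those of 20.8% of all tested genes. A further 6 members, Hoxa10, Hoxb8, Hoxb9, Hoxc6, Hoxc12 and Hoxc13, had all PNU libraries above all DMSO libraries, against 14.1% of all tested genes. Hoxc6 had a fitted log2 fold change of 1.59 (SE 0.60, adjusted p = 0.227). The 15 members high in the 4 libraries had adjusted p-values of 0.186 to 0.400, and for all of them PNU 6 h replicate 1 lay below replicates 2 and 3. The fitted median over the 28 tested members was 2.43 on the log2 scale, or 2.17 with group means held at the floor, against -0.00 over all tested genes; it rests on PNU 6 h replicates 2 and 3.

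At 2 h the fitted log2 fold change of Hoxc4 was -0.42 (SE 0.15, adjusted p = 0.106) and that of Hoxa2 0.49 (SE 0.21, adjusted p = 0.149). Hoxc4 had all PNU libraries below all DMSO libraries, against 13.6% of all tested genes, and Hoxa2 had all of them above, against 9.06%. The fitted median over the 28 tested members was -0.58 on the log2 scale, or -0.57 with group means held at the floor, against -0.01 over all tested genes. Each 2 h group held 1 of the 4 libraries with high Hoxb and Hoxc levels. Leaving out each library in turn changed the sign of the fitted value for 18 of the 28 members at 2 h and for 1 of the 28, Hoxc4, at 6 h. For Hoxc13, which was over the floor in every library, the fitted log2 fold change at 2 h was -0.20, and it became 2.29 without DMSO 2 h replicate 3 and -1.26 without PNU 2 h replicate 1.

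**Figure D5:**
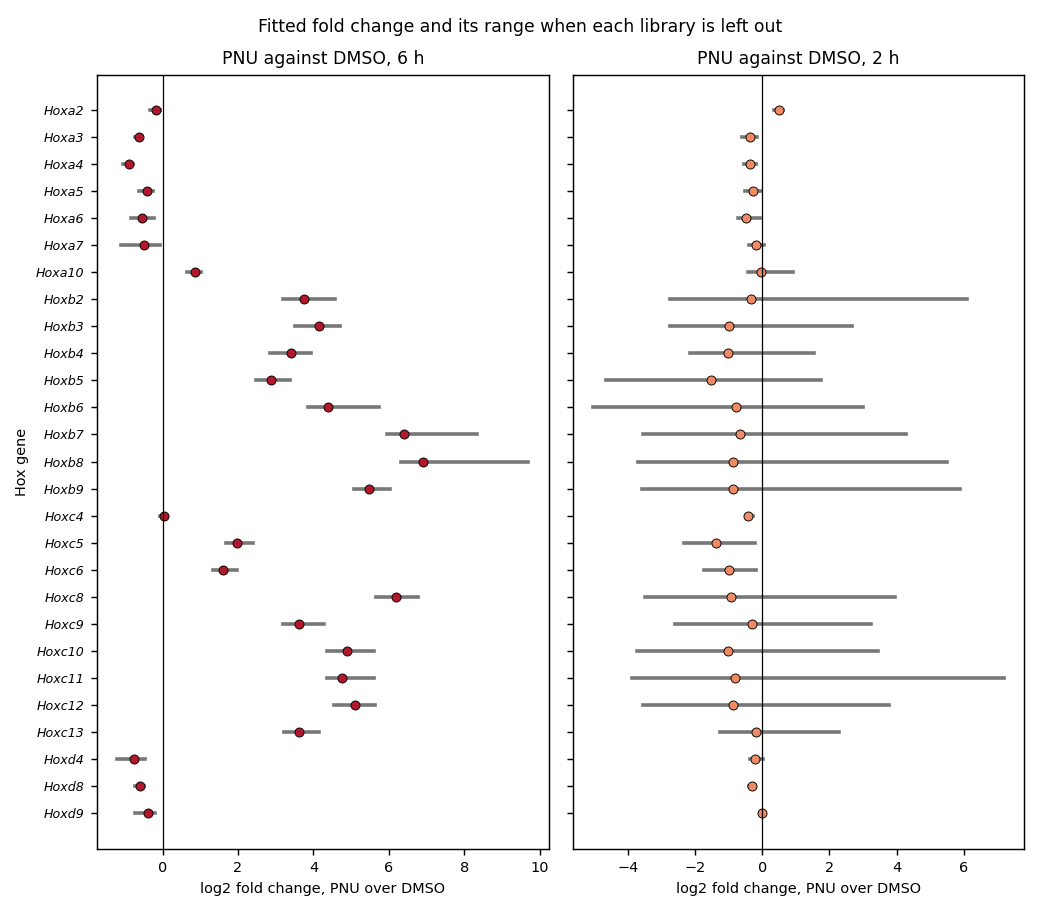
Fitted log2 fold change of PNU over DMSO (points) for 27 tested Hox genes at 6 h and at 2 h, with bars for the lowest and highest value when each library was left out in turn. The bars of Hoxb2 to Hoxb9 and Hoxc8 to Hoxc13 cross 0 at 2 h; where a group is at the floor, the fitted size depends on the prior count and is no bound.

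The difference between the PNU effects at 6 h and 2 h was called for 0 of the 28 members, against 0.035% of all tested genes (6 genes), and 13 had an unadjusted p under 0.05, against 11.3% (1936 genes). Most of these 13 are among the 15 members high in the 4 libraries, so this count too is no test of PNU. With limma-voom it was 4, against 1771 of 17164 genes. With each library left out it was 3 to 20, against 1402 of 17663 and 2100 of 17604 genes in the fits without DMSO 6 h replicate 3 and PNU 6 h replicate 1. DESeq2 called 0 members for the difference, against 1.63% of all tested genes. Hoxc6 had a fitted log2 difference of 2.58 (SE 0.86, adjusted p = 0.314). The PNU effects at both times and the comparisons of 6 h with 2 h share their libraries, so they are not independent of each other.

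Between the times, 4 of the 28 members were called within PNU, against 16.1% of all tested genes (2759 genes), which is near the members' share. Of the 4, 3 were higher at 6 h, against 7.42% of all tested genes, and 1 was lower, against 8.66%. On the log2 scale Hoxc4 rose at 6 h against 2 h by 0.77 (SE 0.15, adjusted p = 0.0114) and Hoxc6 by 2.25 (SE 0.62, adjusted p = 0.0357). Hoxa2 had a log2 fold change of -0.71 (SE 0.21, adjusted p = 0.0425) and so fell. Whether the replicate numbers pair the libraries of PNU 6 h and PNU 2 h is not known. High Hoxb and Hoxc levels lay in replicates 2 and 3 of PNU 6 h but in replicate 1 of PNU 2 h. With the replicate number as a block in edgeR, the value of Hoxc6 was 2.19 and its adjusted p was 0.051, so that its call was lost. Hoxc4 and Hoxa2 stayed called with the block, with which edgeR called 3 members and 16.6% of all tested genes. Higher at 6 h without overlap were Hoxa10, Hoxc4 and Hoxc6 (30.7% of all tested genes), and lower were Hoxa2 and Hoxa4 (21.0%). Within DMSO, 0 members were called by edgeR, against 0.0% of all tested genes, and 0 by DESeq2, against 0.134%, and 3 had an unadjusted p under 0.05, against 4.77%. These 3, Hoxb8, Hoxb9 and Hoxc8, are among the 15 members high in the 4 libraries, and in DMSO they were high in DMSO 2 h replicate 3 only. Hoxd9 was higher at 6 h than at 2 h without overlap (6.12% of all tested genes), and Hoxa7 was lower (3.64%). The difference given above also compares the change between the times in PNU with that in DMSO.

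These counts moved with the libraries that entered the fit. The fit on summed libraries held 8, with 1 for DMSO 6 h, and could call little. After the counts of near-identical libraries were added up, edgeR called 0 members and 0 genes in any comparison, with 0 members at an unadjusted p under 0.05 at 6 h, 1 at 2 h and 2 for 6 h against 2 h within PNU, against 1.45%, 8.08% and 12.2% of all 18400 genes then tested. DMSO 2 h replicate 3 and PNU 6 h replicate 1 had stood apart from their groups in earlier results of these data. Without both, edgeR called 22 of the 28 members at 6 h, against 28.6% of all genes tested, and 9 at 2 h, against 52.2%. In that fit it called 4 for the difference, against 21.8%, and 17 for 6 h against 2 h within PNU, against 35.4%. PNU 6 h was then left with the near-identical replicates 2 and 3, which are among the 4 libraries where the 15 Hoxb and Hoxc members are high. Calls of those members at 6 h thus follow from the choice of libraries and are no test of PNU. Without DMSO 2 h replicate 3 alone it called 4 at 6 h, 5 at 2 h, 1 for the difference and 7 within PNU, against 9.1%, 43.8%, 16.7% and 34.2% of all genes in that order. Without PNU 6 h replicate 1 alone it called 3, 1, 0 and 6, against 6.0%, 2.77%, 0.801% and 9.71%. Without DMSO 2 h replicate 1 it called 1 at 6 h, Hoxa4, against 1.86%. Within PNU it called 2 members without any 1 of PNU 6 h replicates 2 and 3, the 3 DMSO 6 h libraries and PNU 2 h replicate 2, against 3.5% to 9.58% of all genes, and 1 member without PNU 2 h replicate 3, against 3.21%. Hoxc4 was among the 2 each time and was not called without PNU 2 h replicate 3. Hoxc6 and Hoxa2 were not called in any of these fits. Without the 4 libraries holding Y-linked transcripts, 17 members could be tested. In that fit 2 were called at 6 h, Hoxa3 and Hoxd8, both lower in PNU, against 6.26% of all 18024 genes tested. At 2 h 9 were called, against 47.5%, among which Hoxa3, Hoxa4, Hoxa5, Hoxc6 and Hoxd8 were lower in PNU and Hoxa2, Hoxb9 and Hoxc13 higher. The difference was called for 3, Hoxa2 and Hoxc6 among them, against 30.9%, and the change within PNU for the same 4 as with all libraries, against 38.2%. PNU 6 h then rested on replicate 1, which was assumed to vary like the other groups. PNU 2 h rested on its near-identical replicates 2 and 3, and the DMSO 6 h libraries were near-identical too. The spread in that fit may therefore be mostly technical.

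The other genes of the pathway were counted in the same fits. Of the lists of TALE cofactors (9 tested), regulators (24), cluster noncoding RNAs (5), flanking genes (10), eye-field factors (9), forebrain and midbrain factors (6), cranial factors (15) and trunk factors (18), 0 members were called for PNU against DMSO at 6 h, at 2 h or for the difference. At an unadjusted p under 0.05 the counts at 6 h were 2, 2, 1, 2, 4, 2, 7 and 9 in that order, at 2 h 3, 8, 1, 2, 6, 1, 6 and 9, and for the difference 0, 4, 1, 0, 1, 2, 3 and 5. Of all tested genes 15.6% had such a p at 6 h, 30.0% at 2 h and 11.3% for the difference. Within PNU, 6 h against 2 h, 16.1% of all tested genes were called, 7.42% higher and 8.66% lower, beside which the following counts stand. Of the 24 tested regulators 1 rose and 4 fell. The Polycomb gene Cbx8 rose, with a log2 fold change of 0.68 (adjusted p = 0.0147). The Trithorax genes Kmt2d, at -0.53 (adjusted p = 0.00511), and Kmt2a, at -0.35 (adjusted p = 0.0163), fell, as did Wdr5, at -0.43 (adjusted p = 0.0240), and the demethylase gene Kdm6b, at -0.75 (adjusted p = 0.00292). Among the 10 flanking genes 2 rose, Snx10 at 0.49 (adjusted p = 0.0365) and Calcoco1 at 0.60 (adjusted p = 0.0477). Of the 9 eye-field factors 1, Rax, rose, at 1.22 (adjusted p = 0.0445). Of the 15 cranial factors 2 rose, among them Lmx1b at 1.92 (adjusted p = 0.00714), and Foxc2 fell, at -1.15 (adjusted p = 0.0437). Among the 6 forebrain and midbrain factors 1, Emx2, fell, at -0.36 (adjusted p = 0.0302). Of the 18 trunk factors 3 rose, Tbx15 at 0.64 (adjusted p = 0.0157), Tbx18 at 0.55 (adjusted p = 0.0474) and Pax7 (adjusted p = 0.00974). Pax7 is given without a fold change, because it was at 0.141, 1.55 and 2.38 CPM in PNU 6 h libraries, against 0.0884, 0.0218 and 0.0301 CPM in PNU 2 h libraries, near the floor. A further 4 trunk factors fell, Prrx2 at -0.99 (adjusted p = 0.00583), Foxf2 at -0.45 (adjusted p = 0.0157), Gata6 at -0.44 (adjusted p = 0.0359) and Pax3 at -0.59 (adjusted p = 0.0474). No TALE cofactor and no noncoding RNA of the clusters was called.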

How the data were processed

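The 12 libraries of poly(A)-selected RNA fell into 4 groups of 3 by their labels. Per the labels' protocols, reads were trimmed with fastp 0.23.2, aligned to GRCm38 with STAR 2.5.2b and assigned to genes with featureCounts (Subread 1.5.2). The strand setting and annotation release are not given in the sources used here. DESeq2 is named in the submitters' processing notes. The deposited values are raw counts per gene, which the authors did not normalise.

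From these counts, CPM were computed over library totals of 44332013 to 66518799, and RPKM with the exonic length in the tables. The floor of 3 counts covers counting error only. Tests used edgeR 4.0.16 in R 4.3.3 (quasi-likelihood, TMM scaling, low counts filtered by filterByExpr, 4 group means over 12 libraries) with Benjamini-Hochberg adjustment over all 17164 genes tested. The code was run on simulated data with independent libraries of equal spread. Near-identical replicates and libraries that stand apart were not simulated, so the error rate in these data was not checked. DESeq2 1.42.0 and limma 3.58.1 were alternatives, with other scalings and filters and each library left out. Same-numbered libraries of PNU 6 h and PNU 2 h deviated together from their group means across genes (r = 0.315, 0.269 and 0.268). These values exceed a limit of 0.1 set for every pair, and come from the data and not from the labels. In both groups replicates 2 and 3 were near-identical and replicate 1 lay apart. The 3 values are therefore not independent and cannot show which libraries pair. In no other comparison did all 3 pairs exceed that limit. Of the gene IDs, 48970 matched GENCODE M21, 44772 of them at an identical position.

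The members, lists and tests were chosen with earlier results of these data known. The rule for names took members with a group mean of at least 1 CPM, members called in a contrast, up to 4 called genes and up to 4 of highest level per length in each list, and a set of fixed genes such as Hoxc8, Hoxb7, Pax6, Ddx3y and Col1a1. Genes outside it, among them the members below 1 CPM, Thy1, Acta2, Nkx2-5 and En2, were named after their values were seen. Some genes are not reported here by name, though they stay in the fits, counts and sums.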

Additional observations from a re-analysis of the deposited data

How the results depend on the processing

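Over the 23 alternatives to each count, the Hox members called at 6 h (0 as reported) numbered 3 with DESeq2, 2 with no filter, 3 with the libraries of the contrast alone, 22 without DMSO 2 h replicate 3 and PNU 6 h replicate 1, 2 without the 4 libraries holding Y-linked transcripts (an alternative chosen after seeing the data), and 0 to 4 with each library left out. The fit giving 22 kept only the PNU 6 h libraries that were high in most Hoxb and Hoxc members. At 2 h (0 as reported) the Hox members called numbered 1 with DESeq2, 1 with no filter, 9 and 9 without those 2 and those 4 libraries, and 0 to 5 with each library left out. For the difference (0) they numbered 4, 3, and 0 to 1. Within PNU (4) they numbered 2 with no filter, 0 with near-identical libraries summed, 17 without the 2 libraries, and 1 to 7 with each library left out. Within DMSO they stayed at 0 throughout. The fold changes of Hoxa2, Hoxc4 and Hoxc6 within PNU, and those of Hoxa4 and Hoxd8 at 6 h, kept their sign in all 23 alternatives.

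Over all genes, DESeq2 called 923 at 6 h, 2511 at 2 h, 279 for the difference and 23 within DMSO. With no filter edgeR called 140 at 2 h and 15 for the difference, and with library totals alone 0 for the difference. The libraries of the contrast alone gave 1646 at 6 h, 0 at 2 h and 5311 within PNU; the difference uses all groups and was not run so. Near-identical libraries summed gave 0 throughout. Without the 2 libraries the counts were 4981, 9080, 3788, 6170 within PNU and 117 within DMSO, and without the 4 libraries 1128, 8557, 5568, 6893 and 254. With each library left out they were 22 to 1606, 0 to 7724, 0 to 2947, 566 to 6026 and 0 to 4. Fewer samples enter the fits without libraries; otherwise the cause was not tested.

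With the replicate number as a block, Hox members called were 0 at 6 h, 0 at 2 h and 3 within PNU, and all genes called were 296 at 6 h, 311 at 2 h and 0 for the difference. Within PNU the block ended the call of Hoxc6 and changed no other Hox call, but whether the numbers pair the libraries is not known.

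Under 1 RPKM in place of 1 CPM, 4 members and not 7 passed in every library, and with each library left out the count was 7 to 8. At a floor of 10 counts 11 members, and at 0 counts 1 member, were at or under it everywhere. A floor of 3 counts limits what can be said of Hoxd12 and the other members near it.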
